A study of Mus musculus with 2 samples.

Results

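The cells described here were picked from single-cell libraries of mouse medulloblastoma because they held a transcript of Olig2 and none of 6 genes of the oligodendrocyte lineage, namely Sox10, Pdgfra, Gpr17, Cspg4, Cacng4 and Gjc3. A cell also needed at least 500 UMIs (unique molecular identifiers, each counted as 1 captured mRNA molecule) and at most 20% of its UMIs in mitochondrial genes. Of 10512 cells that passed these filters, 292 qualified, made up of 168 of 5723 cells at postnatal day 12 and 124 of 4789 cells at postnatal days 24 to 30. They are called Olig2-positive cells below. Each was set against up to 5 Olig2-negative cells of its own library that also lacked the 6 genes and had nearly the same number of UMIs, which gave 840 and 618 matched cells. Because Olig2 and the 6 genes chose the cells, their levels are descriptions of the choice and are not results.

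OLIG2 and its neighbour OLIG1 are basic helix-loop-helix transcription factors that bind E-box sequences. In the brain OLIG2 is best known for specifying oligodendrocyte progenitors, where it acts with SOX10, and it is also found in neural progenitors and in glioma and medulloblastoma cells that carry no oligodendrocyte programme. Sonic hedgehog (SHH) medulloblastoma arises from granule neuron progenitors of the cerebellum, which divide under SHH signalling and mature through NEUROD1-positive stages into granule neurons.

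The tumours came from hGFAPcre;Ptchc/c mice. In these mice Cre recombinase under a human GFAP promoter deletes Ptch1, the receptor that restrains SHH signalling, in GFAP-promoter-active progenitors and all cells derived from them, so the deletion is not confined to the granule lineage. Both libraries have this genotype, there is no Ptch1-intact control, and each age is 1 Drop-seq library, a droplet method that reads the 3′ ends of transcripts. How many animals went into a library is not given in these sources, so no comparison below has a replicate, no test was made, and every interval is a 95% interval of counting error alone.

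The P12 file held 6000 barcodes with 12265399 UMIs and the P24-30 file 4991 cells with 12256463 UMIs, and the 2 files shared 0 column names. Median depth was 1805 UMIs per kept cell at P12 and 2193 at P24-30. The median mitochondrial share of Olig2-positive cells was 7.03% at P12 and 2.71% at P24-30, and that of ribosomal protein genes over their summed UMIs was 5.29% and 15.5%. The P24-30 column names carry 16 unexplained tags. No doublets were removed.

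Most Olig2-positive cells rested on a single Olig2 molecule. At P12, 126 cells had exactly 1 Olig2 UMI, 29 had 2 and 13 had 3 or more. At P24-30 these numbers were 110, 11 and 3, and the highest count in any cell was 4 in both libraries. Depth was matched closely. The median was 2020.5 UMIs in Olig2-positive and 2021 in matched cells at P12, and 2735 and 2734.5 at P24-30. All eligible Olig2-negative cells had lower medians of 1703 and 2103.

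The absence of the 6 genes set aside a large part of the Olig2-carrying cells. Of 310 kept P12 cells with an Olig2 UMI, 142 were set aside, 68 of them for exactly 1 of the 6 genes and 58 for 3 or more. At P24-30, 66 of 190 were set aside, 33 for exactly 1 gene and 24 for 3 or more. Pdgfra, a receptor for platelet-derived growth factor that marks oligodendrocyte progenitors, was the only one of the 6 genes in 45 of the 68 P12 cells and in 17 of the 33 P24-30 cells. It was found in 23.4% of all kept P12 cells and 16.3% at P24-30, against 0.716% and 0.689% for Sox10, the lineage factor of oligodendrocytes. A list of 20 oligodendrocyte progenitor genes outside the rule summed to 1178 CPM (UMIs per 1000000 UMIs of the group) in the P12 cells set aside for 1 gene, to 1019.7 CPM in Olig2-positive cells and to 12243 CPM in those set aside for 3 or more genes. At P24-30 the values were 581, 432 and 7532 CPM.

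**Figure D1:**
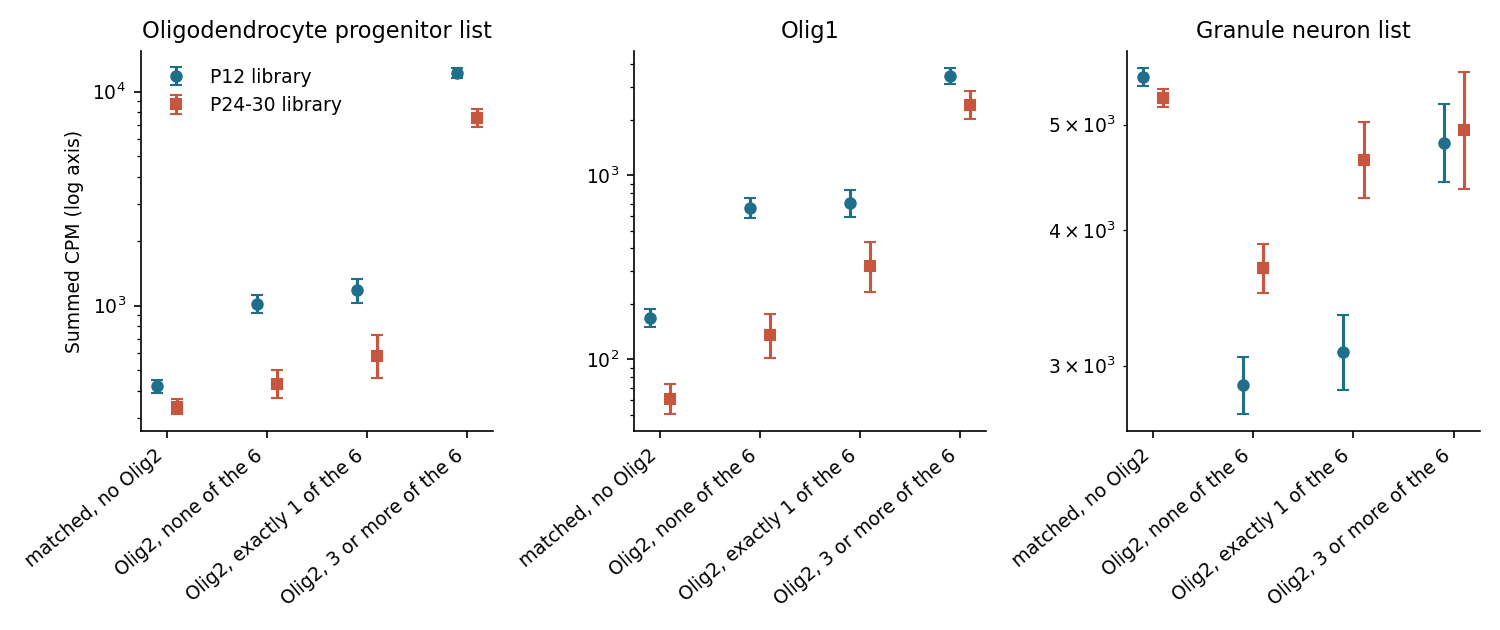
Summed CPM (log axes) of the oligodendrocyte progenitor list, of Olig1 and of the granule neuron list in matched Olig2-negative cells and in Olig2-carrying cells with none, exactly 1, or 3 or more of the 6 oligodendrocyte-lineage genes, for each library. Points are levels and bars are 95% counting intervals; cells with 3 or more of the genes reach 12243 CPM (P12) and 7532 CPM (P24-30) of the progenitor list, while those with none stand at 1019.7 and 432.

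Olig2 was rarer in the older library. With every kept cell thinned to 500 UMIs, an Olig2 UMI was found in 1.94% of P12 cells (1.60 to 2.33) and in 0.752% of P24-30 cells (0.527 to 1.04). Among cells without the 6 genes the thinned shares were 1.27% (0.947 to 1.66) and 0.487% (0.289 to 0.769), so the intervals of the libraries did not overlap in either population. Without thinning, 4.09% of the P12 cells lacking the 6 genes and 3.36% of the P24-30 ones had an Olig2 UMI, and the summed level was 28.0 and 16 CPM. Free RNA in droplets was read from cells that should lack the gene. Of 89 P12 cells with at least 3 of 15 microglia markers 1 had an Olig2 UMI (1.12%, 0.0284 to 6.10) at a median of 2067 UMIs. Of 57 such P24-30 cells 0 had one, at a median of 2260 UMIs, and 3 cells of 57, taken as the limit that a count of 0 allows, are 5.26%. The P12 interval and the P24-30 limit both reach past the unthinned shares of all cells lacking the 6 genes, whose median depths were 1714 and 2124 UMIs, so these few cells set no background below them. How much free RNA adds to these shares was not tested beyond these cells.

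Cells without the 6 genes were ranked by the share of their UMIs in a list of 25 granule neuron genes and split into 4 equal bins. At P12, 7.79% of the lowest bin had an Olig2 UMI (6.22 to 9.60), then 5.84% and 2.34%, and 0.389% of the highest bin (0.106 to 0.994). The P24-30 shares were 5.95% (4.52 to 7.68), 4.44%, 1.95% and 1.08% (0.521 to 1.98). Olig2 was thus found least often among the cells richest in granule neuron genes, and the lowest and highest bins did not overlap in either library. The highest bin was also the shallowest, with median depths of 1506 against 1774 UMIs at P12 and 1772 against 2339 at P24-30. After thinning to 500 UMIs the lowest and highest bins held 2.24% (1.42 to 3.34) and 0.0974% (0.00247 to 0.541) at P12, and 1.19% (0.596 to 2.12) and 0.108% (0.00274 to 0.602) at P24-30. The P24-30 intervals overlapped narrowly after thinning. The summed Olig2 level, which depth does not set, fell from 50.6 to 4.07 CPM and from 27.8 to 6.15 CPM between those bins.

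**Figure D2:**
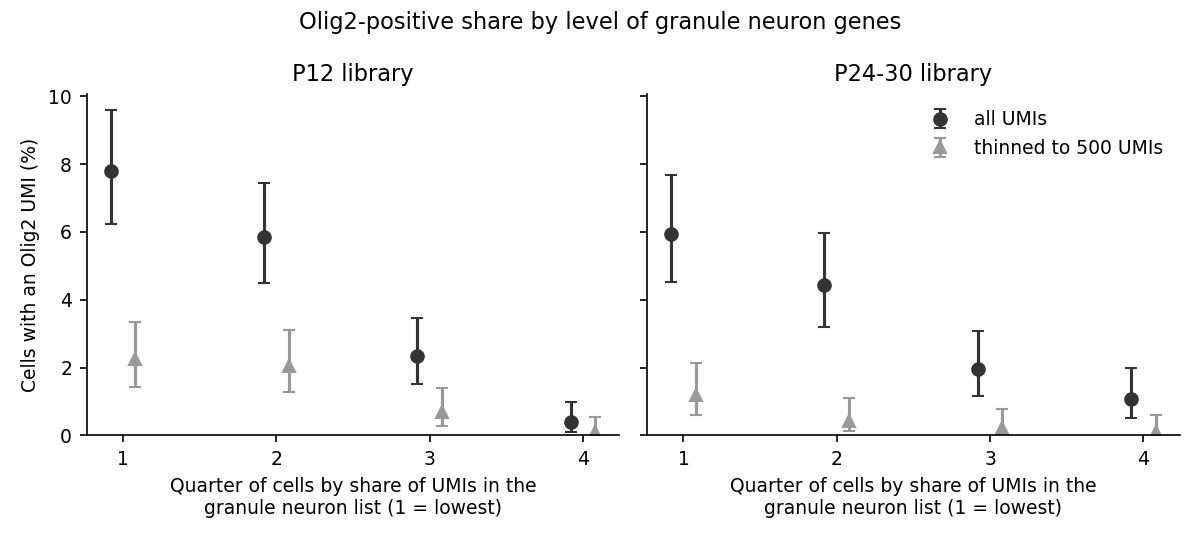
Percentage of cells with an Olig2 UMI in 4 equal bins of cells ranked by their share of UMIs in the granule neuron list, among cells without the 6 oligodendrocyte-lineage genes, with all UMIs (circles) and after thinning to 500 UMIs (triangles). Bars are exact 95% intervals; with all UMIs the share runs from 7.79% in the lowest to 0.389% in the highest bin at P12 and from 5.95% to 1.08% at P24-30.

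As a sum, granule progenitor genes stood near the matched level in the Olig2-positive cells. A list of 15 granule progenitor genes (Atoh1, Zic, Barhl and others) summed to 1839 CPM in Olig2-positive and 2021 CPM in matched cells at P12, a ratio of 0.910 (0.838 to 0.987), and to 2015 against 2108 CPM at P24-30, a ratio of 0.956 (0.885 to 1.03). In the cells with 3 or more of the 6 genes, a group that the rule itself sets apart, that list stood at 297 and 589.6 CPM. Myelin genes such as Mbp, which encodes a structural protein of the myelin sheath, summed to 232 CPM in Olig2-positive and 220.0 CPM in matched cells at P12 (ratio 1.06, 0.828 to 1.33). At P24-30 they summed to 263 and 236 CPM (ratio 1.12, 0.892 to 1.38), against 8711 CPM in the cells with 3 or more of the 6 genes. At least 3 myelin markers were found in 0% of Olig2-positive and 0.357% of matched cells at P12, and in 4.03% and 0.971% at P24-30. No single cell can be assigned to the tumour or to normal brain from these files, since no label marks tumour cells.

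Markers of other cell types were rare in the Olig2-positive cells. None had 3 or more microglia or vascular markers, and 0.595% of the P12 cells and 0% of the P24-30 cells had 3 or more choroid plexus and ependymal markers. Erythroid and unipolar brush cell lists never reached 3 markers in an Olig2-positive cell. Besides the P24-30 myelin markers given above, oligodendrocyte progenitor genes and astrocyte markers were exceptions. At least 3 of the progenitor genes outside the rule were found in 8.33% of Olig2-positive and 3.45% of matched cells at P12. At P24-30 they were found in 5.65% and 2.75%. At least 3 of 18 astrocyte and Bergmann glia markers were seen in 19.0% of Olig2-positive and 7.38% of matched cells at P12. At P24-30 they were seen in 18.5% and 12.6%. In an alternative, all Olig1-holding cells were left out of both groups. So were cells with 3 or more markers of astrocytes and Bergmann glia, microglia, vascular cells, choroid and ependymal cells or myelinating oligodendrocytes. The granule neuron ratio was then 0.447 at P12 and 0.744 at P24-30. Genes that respond to tissue dissociation, such as Jun and Hsp90aa1, summed to ratios of 0.896 (0.790 to 1.01) at P12 and 0.955 (0.895 to 1.02) at P24-30.

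Across all genes with at least 20 UMIs in Olig2-positive and matched cells together, 10.8% of 9570 genes were at least 1.5-fold higher in Olig2-positive cells at P12 and 15.6% at least 1.5-fold lower. At P24-30 the shares were 10.1% and 15.8% of 8965 genes. Many of these genes have few UMIs, and their folds are within counting error. Past the fold in both libraries were 1.84% of 8109 genes on the higher side and 3.44% on the lower side. The counts within gene lists are read against these shares, and the median gene's log2 ratio was -0.01 at P12 and -0.03 at P24-30.

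**Figure D3:**
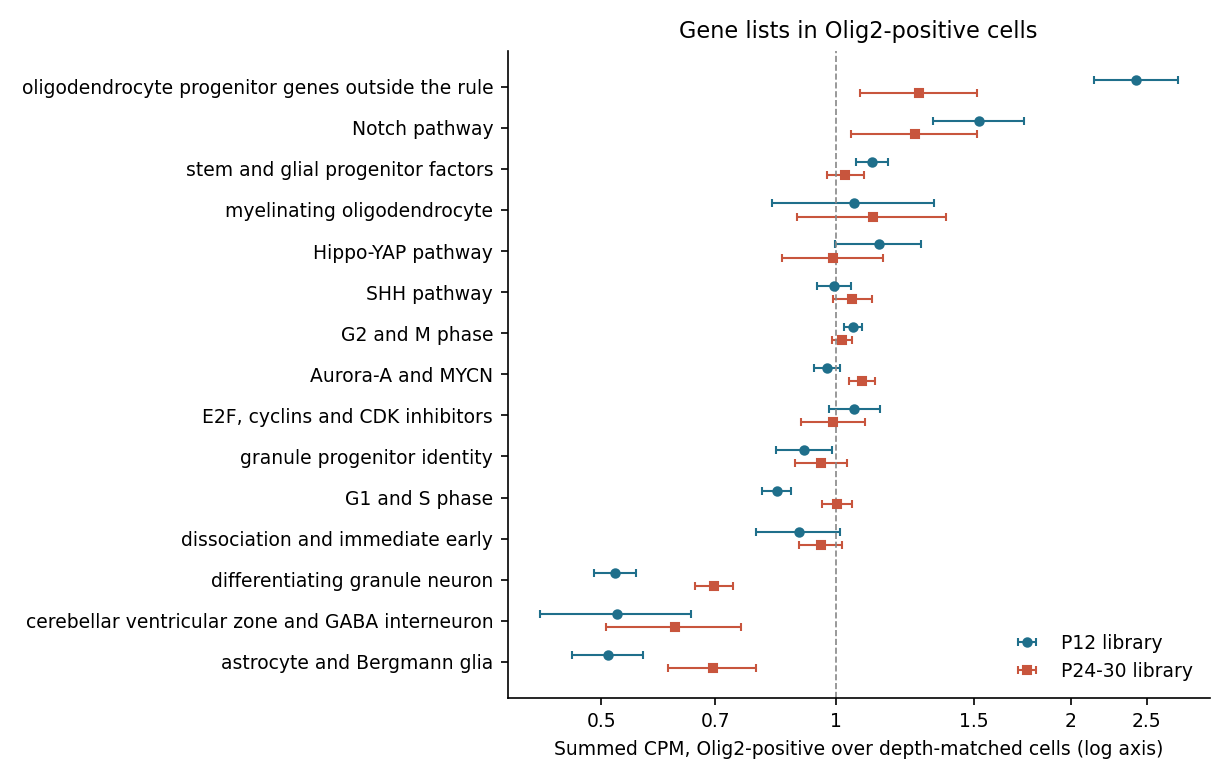
Ratio of summed CPM in Olig2-positive over depth-matched cells (log axis) for 15 gene lists in each library, with 95% counting intervals. Oligodendrocyte progenitor genes outside the rule (2.42 and 1.28) and Notch pathway genes (1.52 and 1.26) lie above 1 and granule neuron genes (0.521 and 0.697) below 1 in both libraries; the astrocyte ratios (0.510 and 0.695) exceed 1 (1.36 and 1.20) when cells with markers of microglia, vascular cells or choroid plexus are left out.

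Olig1, the paralogue that lies 41094 bases downstream of Olig2 on chromosome 16 (Olig2 at chr16:91225457-91228677 and Olig1 at chr16:91269772-91271933, plus strand, GENCODE vM21 on mm10), was among the 12 genes named as highest by the rule given below. It was found in 95 of 168 P12 cells (56.5%) and 195 of 840 matched cells (23.2%), with levels of 665 and 167 CPM, a ratio of 3.98 (3.35 to 4.72). At P24-30 it was found in 32 of 124 cells (25.8%) and 82 of 618 matched cells (13.3%), with 135 and 61.0 CPM, a ratio of 2.22 (1.57 to 3.09). Olig1 was therefore also present in many Olig2-negative cells, and its ratio was higher at P12 than at P24-30 with intervals that did not overlap. No counting strand is given in the sources used here, and a noncoding gene on the opposite strand overlaps Olig1.

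Besides Olig1, 8 progenitor genes of the oligodendrocyte list had 20 UMIs or more at P12, of which 5 were at least 1.5-fold higher and 0 lower, against the 10.8% and 15.6% of all genes. At P24-30 the 3 that reached 20 UMIs, Epn2, Vcan and C1ql1, had 0 past the fold in either direction. Bcan, which encodes the brain proteoglycan brevican, stood at 82.7 CPM in P12 Olig2-positive cells and 16.1 CPM in matched cells, a ratio of 5.15 (3.02 to 8.81). Ptprz1, a receptor phosphatase of glial progenitors, stood at 18.7 and 9.10 CPM there (ratio 2.05, 0.720 to 5.21), while the P12 cells with 3 or more of the 6 genes had 1953 CPM. Vcan and C1ql1, the lowest of the list, had ratios of 0.914 (0.552 to 1.45) and 0.776 (0.452 to 1.27) at P12, and of 0.964 (0.390 to 2.08) and 1.02 (0.793 to 1.31) at P24-30. The summed list was 2.42 times the matched level at P12 (2.14 to 2.74) and 1.28 times at P24-30 (1.07 to 1.52). Olig1 made up 665 of the 1019.7 CPM at P12 and 135 of the 432 CPM at P24-30, where C1ql1 had more, at 202 CPM. Without cells holding Olig1, and without cells with 3 or more markers of another type, the P12 ratio was 1.16.

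The 12 genes with the highest lower bound of the ratio over both libraries were named by rule, and the 11 besides Olig1 are of varied function. Thrsp, a nuclear protein induced by thyroid hormone and linked to fatty acid synthesis, was found in 25 of 168 P12 cells (14.9%) and 28 of 840 matched cells (3.33%), with 125 and 19.3 CPM, a ratio of 6.51 (4.13 to 10.3). At P24-30 it was found in 9 of 124 cells (7.26%) and 12 of 618 matched cells (1.94%), a ratio of 5.76 (2.47 to 13.6) resting on 14 and 12 UMIs. Fzd1, a Frizzled receptor for Wnt ligands, stood at 82.7 against 23.6 CPM at P12 and 71.5 against 21.2 CPM at P24-30, with ratios of 3.51 (2.14 to 5.69) and 3.37 (2.01 to 5.59). It was found in 16.1% and 20.2% of the Olig2-positive cells and in 4.64% and 4.85% of the matched ones. Etv5, an ETS-family transcription factor, stood at 66.7 against 18.7 CPM and 43.4 against 11.9 CPM, with ratios of 3.56 (2.04 to 6.12) and 3.65 (1.83 to 7.14). All 3 genes were thus seen in a minority of Olig2-positive cells. Their intervals above 1 in both libraries follow from the rule that named them and are no separate result.

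The stretches of 250 bases before the RefSeq transcription start of Olig2 and of these 3 genes are shown because OLIG2 belongs to the factors that bind E-boxes. They come from the RefSeq promoter table on GRCm38.p6, which held 9 of the 13 genes made up of Olig2 and the 12 named, and each is printed 5′ to 3′ on the gene's strand with every CANNTG in capitals. The pattern reads alike on both strands. The windows are chr16:91225300-91225549 (plus strand) for Olig2, chr7:97417551-97417800 (minus) for Thrsp, chr5:4758217-4758466 (minus) for Fzd1 and chr16:22439571-22439820 (minus) for Etv5.
Olig2: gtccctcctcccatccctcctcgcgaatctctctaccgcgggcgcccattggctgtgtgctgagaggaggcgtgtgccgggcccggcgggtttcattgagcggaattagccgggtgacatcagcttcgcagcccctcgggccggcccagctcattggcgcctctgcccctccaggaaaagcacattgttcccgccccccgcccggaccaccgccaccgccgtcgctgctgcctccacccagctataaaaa
Thrsp: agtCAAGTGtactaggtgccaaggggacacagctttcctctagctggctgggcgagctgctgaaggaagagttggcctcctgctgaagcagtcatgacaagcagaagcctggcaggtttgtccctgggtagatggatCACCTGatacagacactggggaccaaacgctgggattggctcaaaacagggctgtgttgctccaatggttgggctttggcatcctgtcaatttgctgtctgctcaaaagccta
Fzd1: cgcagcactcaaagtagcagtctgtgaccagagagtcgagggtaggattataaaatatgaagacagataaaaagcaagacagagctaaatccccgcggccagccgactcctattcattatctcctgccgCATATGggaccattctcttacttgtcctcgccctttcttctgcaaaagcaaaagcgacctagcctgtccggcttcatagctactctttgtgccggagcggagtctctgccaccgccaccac
Etv5: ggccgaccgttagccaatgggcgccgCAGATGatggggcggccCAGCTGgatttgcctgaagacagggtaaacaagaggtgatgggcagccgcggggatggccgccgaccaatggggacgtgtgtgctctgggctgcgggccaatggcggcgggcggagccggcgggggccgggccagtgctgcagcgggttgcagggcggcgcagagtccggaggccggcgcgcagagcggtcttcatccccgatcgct
The starts of the 2 annotations differ, so 93 bases of the Olig2 window, 180 of the Thrsp window and 149 of the Etv5 window lie inside the GENCODE gene, and 0 of the Fzd1 window. The Thrsp window held CAAGTG and CACCTG, whose first bases lie at -247 and -113 from the start. Fzd1 had CATATG at -121, Etv5 had CAGATG at -224 and CAGCTG at -207, and the Olig2 window had no match. CANNTG was present in 66.2% of all 32851 windows of 250 bases, CAGCTG in 13.0% and CATATG in 3.46%. Of the 8 named genes with a window, 6 held CANNTG (75%), near the share of all windows. A match describes the letters only and does not show binding.

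The remaining named genes differed by less. Sox9, a transcription factor of glial and neural stem cells, stood at 307 against 133 CPM at P12 and 215 against 113 CPM at P24-30, with ratios of 2.31 (1.84 to 2.90) and 1.90 (1.46 to 2.46). It was found in 40.5% and 35.5% of the Olig2-positive cells and in 23.2% and 22.3% of the matched cells. Dusp6, a phosphatase that switches off ERK kinases, had ratios of 2.41 (1.63 to 3.50) and 2.53 (1.42 to 4.38). Sowaha had ratios of 2.29 and 2.73, and Gpr89, a Golgi pH regulator, of 2.37 and 2.55. Traf4, an adaptor of tumour necrosis factor receptors, had 1.85 and 2.07, and Klhl13, an adaptor of a ubiquitin ligase, 1.68 and 1.69. Rcn1, a calcium-binding protein of the endoplasmic reticulum, had 1.55 and 1.57, and Brd7, a bromodomain subunit of a chromatin remodeller, 1.44 and 1.53. The levels of these 6 genes ran from 38.3 to 288 CPM in Olig2-positive cells. Their lower bounds, by which the genes were chosen, ran from 1.13 to 1.80. In the 14 P24-30 cells with 2 or more Olig2 UMIs, set against their own matched cells, the ratios of Sox9, Rcn1 and Brd7 were 0.999, 0.208 and 0.333.

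**Figure D4:**
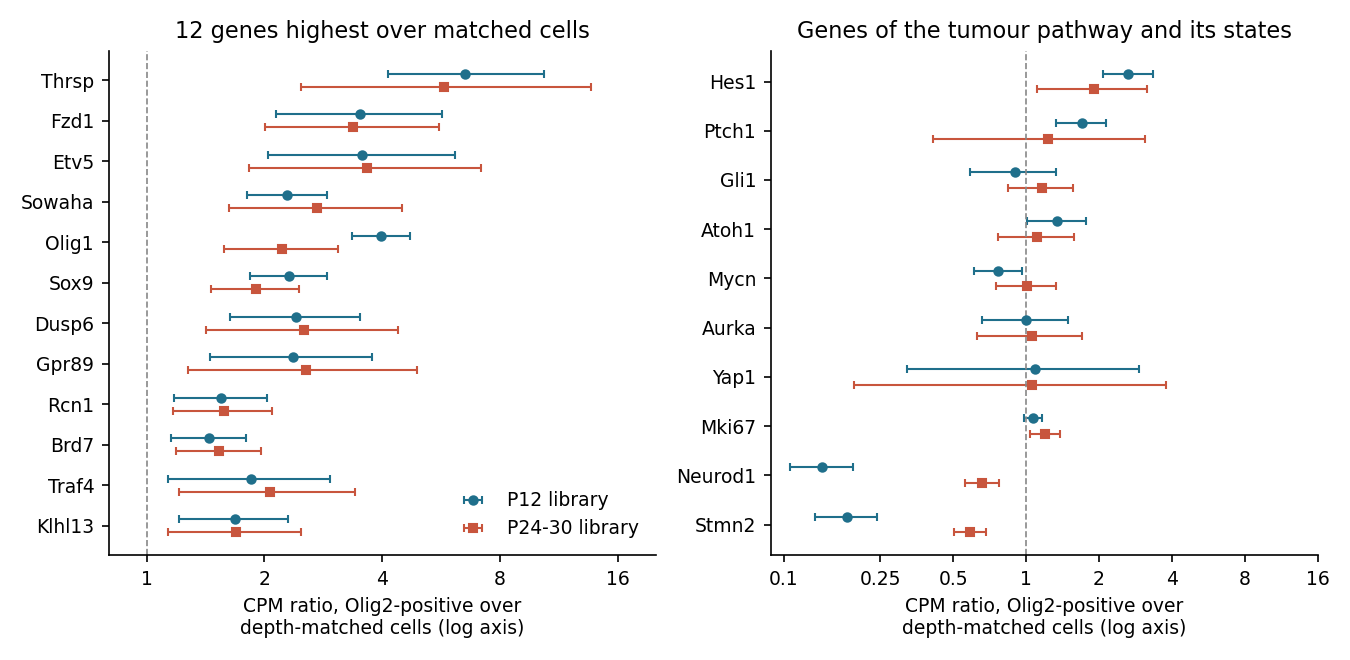
CPM ratio of Olig2-positive over depth-matched cells (log axis) for the 12 genes named as highest (left) and for genes of the tumour pathway and its states (right), in each library with 95% counting intervals. Thrsp is highest on the left at 6.51 and 5.76, and Neurod1 (0.144 and 0.660) and Stmn2 (0.183 and 0.586) are lowest on the right.

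Stem and glial progenitor factors were higher in Olig2-positive cells at P12 as single genes more than as a sum. Of 14 members with 20 UMIs at P12, 9 were at least 1.5-fold higher and 1 lower, and at P24-30 4 of 14 were higher and 1 lower. Over all genes the shares were 10.8% higher and 15.6% lower at P12, and 10.1% and 15.8% at P24-30. The list's median log2 ratio was 0.87 at P12 and 0.23 at P24-30, while the summed ratios were 1.11 (1.06 to 1.17) and 1.03 (0.972 to 1.08), a sum in which abundant members such as Nfia and Nfib weigh most. Vim, the intermediate filament of progenitors and glia, stood at 534 against 217 CPM at P12 (ratio 2.46, 2.06 to 2.92) and 138 against 96.2 CPM at P24-30 (1.43, 1.04 to 1.95). Nes, a filament of neural stem cells, had ratios of 2.22 (1.55 to 3.14) and 1.63 (1.02 to 2.52). Sox2, a stem cell factor, had 15 UMIs in P12 Olig2-positive cells and 23 in matched cells, a ratio of 3.25 (1.58 to 6.51), but only 2 and 10 UMIs at P24-30 (0.988, 0.105 to 4.64). Nfib, a factor of maturing granule cells and glia, went the other way, with 0.699 (0.635 to 0.767) and 0.843 (0.774 to 0.917). Olig2-negative cells with a Sox2 UMI, 81 at P12 and 40 at P24-30, had Thrsp at 5.16 and 0 CPM. In Olig2-positive cells it stood at 125 and 35.8 CPM. At P24-30 the latter rests on 14 UMIs over 124 cells, so the 40 cells are too few to place below it.

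Notch pathway genes, whose receptors and HES targets hold progenitors undifferentiated, summed to 771 against 506 CPM at P12 (ratio 1.52, 1.33 to 1.74) and 373 against 295 CPM at P24-30 (1.26, 1.05 to 1.52). At P12, 5 of 11 tested members were past the fold on the higher side and 2 on the lower, against 10.8% and 15.6% of all genes. At P24-30 they were 2 of 8 and 0, against 10.1% and 15.8%. Hes1, a transcriptional repressor and Notch target, was found in 75 of 168 P12 cells (44.6%) and 122 of 840 matched cells (14.5%), with 296 and 112 CPM, a ratio of 2.64 (2.07 to 3.33). Its P24-30 levels were 56.2 and 29.5 CPM, a ratio of 1.91 (1.11 to 3.17). Hes1 alone held 111 of the list's 289 UMIs in P12 Olig2-positive cells and 210 of 946 in matched cells, so it weighs heavily in the sum. The receptors Notch1, Notch2 and Notch3 had only 7, 6 and 0 UMIs in P12 Olig2-positive cells, and 0, 2 and 0 at P24-30. Jag1, a Notch ligand, had ratios of 2.87 (1.64 to 4.91) and 2.36 (1.04 to 5.04). Hey1, another target, had 0.598 (0.386 to 0.894) at P12 and 1.13 (0.759 to 1.64) at P24-30.

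The SHH pathway as a whole stood at the level of the matched cells, with summed ratios of 0.994 (0.946 to 1.04) at P12 and 1.05 (0.989 to 1.11) at P24-30. Of 14 tested members, 2 were higher and 3 lower past the fold at P12, and 3 higher and 0 lower at P24-30. The shares of all genes were 10.8% higher and 15.6% lower at P12, and 10.1% and 15.8% at P24-30. Gli1, the target gene most used as a readout of SHH activity, stood at 80.1 against 89.4 CPM at P12 (ratio 0.896, 0.586 to 1.33) and 138 against 119 CPM at P24-30 (1.16, 0.846 to 1.57). Gas1, a membrane co-receptor that aids SHH binding, had ratios of 2.14 (1.70 to 2.69) and 1.58 (0.954 to 2.53). Ccnd2, a cyclin, was lower, with 0.697 (0.618 to 0.784) and 0.850 (0.757 to 0.952). Ptch1 reads stood at 262 against 154 CPM at P12 (1.70, 1.33 to 2.14) and at 15.3 against 12.4 CPM at P24-30 (1.23, 0.413 to 3.10). Which part of Ptch1 is deleted is not given in these sources, so 3′ reads do not tell whether a cell has lost the gene. Atoh1, the factor that defines granule progenitors, had 1.34 (1.01 to 1.77) and 1.11 (0.766 to 1.58), but 0.901 in the 42 P12 cells with 2 or more Olig2 UMIs.

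Granule neuron genes were lower in Olig2-positive cells in both libraries. Their sum was 2878 against 5528 CPM at P12, a ratio of 0.521 (0.488 to 0.554), and 3688 against 5288 CPM at P24-30, a ratio of 0.697 (0.660 to 0.737). At P12, 11 of 23 tested members were past the fold on the lower side and 0 on the higher, against 15.6% and 10.8% of all genes, and at P24-30 7 of 19 and 0, against 15.8% and 10.1%. Neurod1, the factor of differentiating granule neurons, was found in 36 of 168 P12 cells (21.4%) and 414 of 840 matched cells (49.3%), with 125 and 869 CPM, a ratio of 0.144 (0.106 to 0.193). At P24-30 it was found in 52.4% and 57.3% of the cells, with 447 and 677 CPM and a ratio of 0.660 (0.560 to 0.773). Stmn2, a microtubule regulator of growing neurites, stood at 131 against 716 CPM and 493 against 841 CPM, with ratios of 0.183 (0.134 to 0.243) and 0.586 (0.502 to 0.681). Cntn2, an adhesion protein of migrating granule cells, had 0.149 (0.0400 to 0.390) and 0.494 (0.320 to 0.735). Lhx1, of the list of ventricular zone and interneuron genes, had 0.300 (0.218 to 0.404) and 0.610 (0.491 to 0.752). The difference was larger at P12 for the list, Neurod1, Stmn2 and Lhx1, with intervals of the libraries that did not overlap. Within the list, Vamp2 had the mean log2 ratio over both libraries nearest to 0, followed by Map2, a microtubule protein of dendrites. Vamp2 had 0.643 (0.165 to 1.82) and 1.21 (0.586 to 2.31), resting on 4 and 12 UMIs in Olig2-positive cells. Map2 had 0.858 (0.696 to 1.05) and 0.868 (0.655 to 1.14).

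The genes named by rule as lowest were mostly those of microglia, the brain's resident macrophages. Among them, Ctss, Lyz2, Spp1, C1qb, C1qa, Apoe and Ctsd are lysosomal, complement or lipid-transport genes with high levels in these cells. The microglia markers that reached 20 UMIs, 15 of 15 in the younger and 6 of 15 in the older library, did so through the matched cells, so that their number past the fold is not given. At P12 10 and at P24-30 11 of the 15 were at 0 UMIs in Olig2-positive cells. Their sum was 24.0 CPM in P12 Olig2-positive cells against 1082 CPM in matched cells, and 12.8 against 247 CPM at P24-30. In P12 Olig2-positive cells Ctss was at 0 UMIs and in matched cells at 264, which is at least 17.6-fold lower with Olig2-positive cells set to a floor of 3 UMIs over the group. Cells with 3 or more microglia markers made up 2.14% and 1.46% of the matched cells and 0% of the Olig2-positive cells. When cells with 3 or more markers of microglia, vascular cells or choroid plexus were left out of both groups, an alternative chosen after these values were seen, 3 of the 12 lowest and 9 of the 12 highest genes were named again. At P12 the ratios of Apoe and Ctsd were then 1.05 and 1.60.

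With those cells left out, Stmn2 was among the 12 lowest genes. It had ratios of 0.175 (0.129 to 0.233) at P12 and 0.567 (0.486 to 0.659) at P24-30. Chgb, a secretory granule protein, had 0.384 and 0.458, and Nrn1, a neurite growth factor, 0.467 and 0.452. Miat, a long noncoding RNA, had 0.303 and 0.574, and Igfbpl1 had 0.461 and 0.604. Neurod1, Cntn2 and Lhx1 were also among them. Apc, a scaffold that restrains Wnt signalling, stood at 319 against 513 CPM and 94.5 against 207 CPM, with ratios of 0.622 (0.510 to 0.754) and 0.457 (0.317 to 0.641). 2610035F20Rik and E130102H24Rik, both long noncoding genes, and Mroh2a were low in both versions. 2610035F20Rik was found in 2 of 168 P12 cells and 1 of 124 P24-30 cells, and in 7.50% and 8.25% of the matched cells before any were left out. On the higher side, Sparcl1, an extracellular protein of astrocytes, joined the named genes with 2.22 (1.67 to 2.93) and 2.07 (1.45 to 2.92). Col4a1, a basement membrane collagen, joined with 3.31 and 2.70, and Atp8a1, a phospholipid flippase, with 2.07 and 3.21. The astrocyte list summed to 0.510 and 0.695 of the matched level with all cells and to 1.36 and 1.20 without those cells. Apoe, a lipid carrier of astrocytes and microglia in that list, had 0.0637 and 0.140 with all cells and 1.05 and 0.992 without them.

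Proliferation genes stood close to the matched level, except that those of G1 and S phase were lower at P12. Genes of G2 and M phase summed to 19585 against 18636 CPM at P12 (ratio 1.05, 1.02 to 1.08) and 13735 against 13503 CPM at P24-30 (1.02, 0.988 to 1.05). Of 53 members, 2 were higher and 0 lower past the fold at P12, and 1 and 1 at P24-30. Among all genes 10.8% were higher and 15.6% lower at P12, and 10.1% and 15.8% at P24-30. The P12 ratio was under 1, at 0.978, without the deepest 5% of cells. Mki67, the proliferation marker, was found in 68.5% of P12 Olig2-positive and 62.4% of matched cells, with 1663 and 1554 CPM (1.07, 0.980 to 1.17), and at P24-30 in 49.2% and 47.1% (1.20, 1.03 to 1.38). Genes of G1 and S phase had 0.838 (0.802 to 0.876) at P12 and 1.00 (0.958 to 1.05) at P24-30. At P12, 9 of the 44 were past the fold on the lower side and 0 on the higher, against 15.6% and 10.8% of all genes. At P24-30 they were 0 and 2, against 15.8% and 10.1%. Mcm2, a subunit of the replicative helicase, had 0.467 (0.303 to 0.694) and 1.06 (0.724 to 1.52), and Chaf1b, a histone chaperone, 0.394 and 0.941. The list of E2F factors, cyclins and CDK inhibitors had 1.06 (0.978 to 1.14) and 0.991 (0.902 to 1.09). Of its 19 members, 4 were higher and 4 lower past the fold at P12, and 0 and 4 at P24-30. E2f3 had 0.502 (0.268 to 0.871) and 0.563 (0.248 to 1.12). Going the other way at P12, E2f5 had 1.87 (1.19 to 2.88) and 1.27 (0.686 to 2.24). Cdkn1a, a CDK inhibitor, had 1.68 (1.08 to 2.55) and 0.647 (0.311 to 1.22).

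Growth and chromatin regulators had few members past the fold. Mycn, the MYC-family factor that SHH induces, stood at 246 against 319.6 CPM at P12 (0.768, 0.610 to 0.958) and 156 against 155 CPM at P24-30 (1.01, 0.752 to 1.33). Aurka, the mitotic kinase that stabilises MYCN, had 1.00 (0.659 to 1.48) and 1.06 (0.627 to 1.71), and their list summed to 0.974 and 1.08. Yap1, the effector of Hippo signalling, had only 5 and 3 UMIs in Olig2-positive cells, with ratios of 1.08 (0.322 to 2.91) and 1.06 (0.195 to 3.79). The Hippo list summed to 1.13 (0.998 to 1.28) and 0.991 (0.852 to 1.15). On the higher side 0 of 15 and 0 of 10 tested members were past the fold, against 10.8% and 10.1% of all genes. On the lower side 1 of 15 and 2 of 10 were, against 15.6% and 15.8%. Of 16 chromatin partners and Polycomb genes, 0 were past the fold in either direction in either library, against those same shares. These 16 genes had at least 48.0 CPM at P12 and 38.3 CPM at P24-30 in Olig2-positive cells, while many of all genes have few UMIs. At P12 the intervals of Chd7 (0.696, 0.561 to 0.856), Suz12 (0.667, 0.458 to 0.947), Hdac2 (0.749, 0.604 to 0.921) and Dnmt1 (0.736, 0.565 to 0.946) lay below 1. At P24-30 those of Chd4 (0.850, 0.732 to 0.983) and Smarca4 (0.717, 0.540 to 0.938) did, while Dnmt1 was at 1.38 (1.08 to 1.73).

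The Olig2-positive cells were also compared among themselves, split by Olig1 and by their number of Olig2 UMIs. At P24-30 the 32 cells with an Olig1 UMI had 105 CPM of Stmn2 and 2407 CPM of the granule neuron list, while the 92 cells without one had 654 and 4218 CPM. Etv5 stood at 131 CPM in the former and 7.22 CPM in the latter. At P12 the 95 and 73 cells had similar levels of Stmn2, at 129 and 134 CPM, and of Etv5, at 68.7 and 63.5 CPM. Cells with an Olig1 UMI were deeper, with median UMIs of 3512 against 2580 at P24-30 and 2145 against 1816 at P12. The 42 P12 cells with 2 or more Olig2 UMIs had 263 CPM of Thrsp and 877 CPM of Olig1, against 73.5 and 585 CPM in the 126 cells with 1. At P24-30 the 14 such cells had 88.2 CPM of Thrsp and 419 CPM of Olig1, against 28.9 and 98.2 CPM in the other 110. All P24-30 Olig2-positive cells together held 14 Thrsp and 17 Etv5 UMIs, so the splits of these 2 genes rest on few molecules. Depth was not matched between the cells of these splits, and their levels are given without intervals.

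In the P24-30 library the Olig2-positive cells were spread over 13 of the 16 column-name tags. The tag G2 held the largest share of both groups, with 24.2% of Olig2-positive (17.0 to 32.7) and 24.1% of matched cells (20.8 to 27.7). Tags G8, G9 and G12 held 0 Olig2-positive cells, and 0.162%, 0.162% and 1.29% of the matched cells. The widest gap was at G15, with 8.87% (4.51 to 15.3) against 5.02% (3.43 to 7.05), and the intervals overlapped at every tag.

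**Figure D5:**
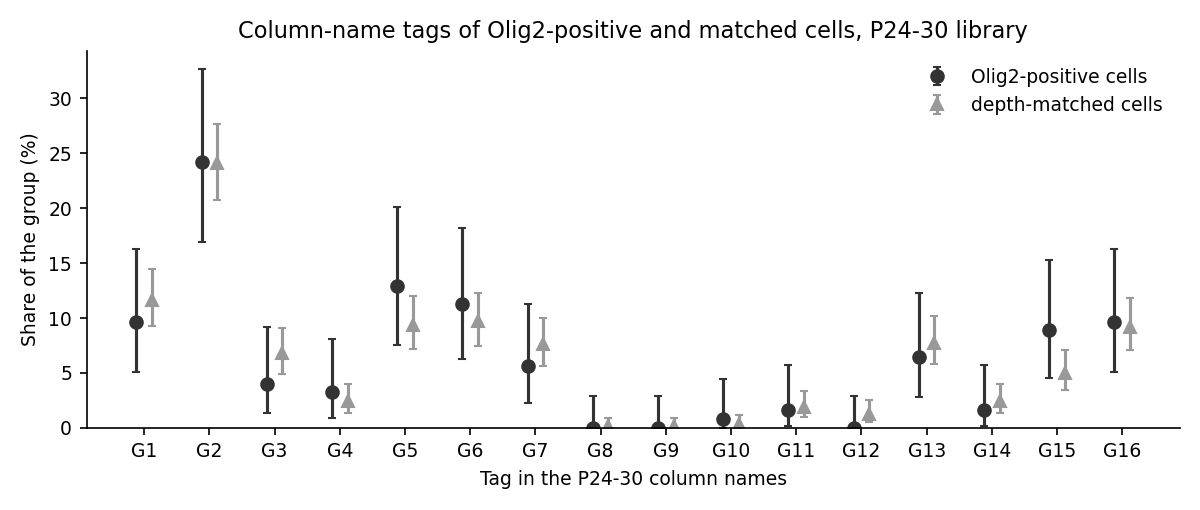
Share of the 124 Olig2-positive and 618 depth-matched P24-30 cells under each of the 16 tags in the column names, with exact 95% intervals. The groups overlap at every tag, from 24.2% and 24.1% at G2 to 0% and 1.29% at G12.

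Between the libraries, the ratio of Olig2-positive over matched cells had intervals that did not overlap for 6 of 21 lists. The same held for 15 of 272 genes that were in these lists or named by rule. This was not counted over all genes, so the 15 have no share to be read against. Besides those given above, Id3, an inhibitor of helix-loop-helix factors, had 3.90 (2.21 to 6.78) at P12 and 0.732 (0.301 to 1.55) at P24-30. S100b, a calcium-binding glial protein, had 3.06 (1.63 to 5.58) and 0.588 (0.182 to 1.48). Age and library cannot be told apart here, and the files were deposited in different units.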

How the data were processed

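Both libraries were processed by the submitters with CASAVA and build mm10, per the submitters' processing notes; the aligner and counting tool are not given in these sources. For P12 the authors deposited counts, taken here as UMI counts. For P24-30 the authors deposited natural log values, ln(1 + 10000 × the gene's fraction of the cell), as read from the values. UMIs were recovered by dividing by the cell's smallest step, and 100% of the values came out whole within 0.001.

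Barcodes under 500 UMIs (9 at P12, 153 at P24-30) and then those over 20% mitochondrial UMIs (268 and 49) were left out. Each Olig2-positive cell was paired with the 5 nearest eligible cells by log UMIs, without replacement and within 10%; 1 P24-30 cell had fewer. UMIs were summed per group, scaled to CPM and compared as ratios with exact conditional Clopper-Pearson 95% intervals. Shares carry exact binomial 95% intervals. A group at 0 was set to a floor of 3 UMIs for folds, and genes needed 20 UMIs over both groups. Intervals treat UMIs as independent and cover counting error only.

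The 12 genes with the highest lower bound and the 12 with the lowest upper bound over both libraries were named, with the 2 highest and 2 lowest of each of 21 lists and 13 genes carried throughout; a few of these genes are not reported here. The cells, lists and rules were chosen with earlier results of these data known. Alternatives changed the UMI and mitochondrial limits, the matching, the Olig2 minimum, the deepest cells, other cell types, the CPM total and the gene filter. Leaving out only microglia, vascular and choroid cells, and dropping Pdgfra from the rule, were added after seeing the data. The calculation was tested on simulated data. Python 3.11.15, numpy 2.4.6, scipy 1.17.1 and pandas 2.3.3 were used.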

Additional observations from a re-analysis of the deposited data

Results flagged for a closer look

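For Dnmt1, the enzyme that maintains DNA methylation through replication, the intervals of the ratio of Olig2-positive over matched cells lay wholly on opposite sides of 1. It was the only such gene of 272 in the lists or named by rule and measured in both libraries. The genes named as highest or lowest could not have met this, since they were chosen by bounds on the same side of 1 in both libraries. Such genes were not counted over all genes, so Dnmt1 has no share to be read against. The Dnmt1 ratio was 0.736 at P12 (0.565 to 0.946) and 1.38 at P24-30 (1.08 to 1.73). The difference between the libraries was not tested, since each age is 1 library.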

How the results depend on the processing

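No paired analysis was possible because each age is 1 library. The number of genes at least 1.5-fold higher was 1030 at P12 and 901 at P24-30 and that of genes lower 1497 and 1415. With at least 50 UMIs per gene they were 459, 348, 704 and 599, of 6674 genes tested at P12 and 6040 at P24-30, and with no filter on low genes the higher ones were 2919 and 2560. The P24-30 counts were 364 and 577 among the 14 cells with 2 or more Olig2 UMIs. The share of all kept cells with an Olig2 UMI was 5.42% and 3.97% without thinning and 3.09% and 1.74% at 1000 UMIs. Of the list ratios recomputed, 242 stayed in the interval of the reported value and 9 crossed 1 although that interval excluded it, and of the gene ratios 474 and 9 did. The other 36 list and 50 gene ratios left the interval without such a crossing. A further 62 had under 20 UMIs and got no value.

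With 2 or more Olig2 UMIs the P12 ratios were 1.19 for the stem list, 0.478 for granule neuron genes, 0.973 for G2 and M phase and 0.901 for Atoh1. At P24-30 they were 2.71 for the oligodendrocyte progenitor list, 0.564 for granule neuron genes, 1.41 for G2 and M phase, 0.984 for Aurora-A and MYCN, 1.28 for astrocyte genes, 0.999 for Sox9, 0.208 for Rcn1 and 0.333 for Brd7. Without the deepest 5% of cells, granule neuron genes had 0.483 and 0.635, G2 and M phase 0.978 and 0.928, and the P24-30 stem list 0.969. Without Olig1-holding cells and cells with markers of another type, the P12 oligodendrocyte progenitor ratio was 1.16, granule neuron genes had 0.447 and 0.744, G2 and M phase 0.963 and 0.832, astrocyte genes 1.07 and 1.41, Apoe 1.58 and 1.5 and P12 Ctsd 1.18. With only microglia, vascular and choroid cells left out, astrocyte genes had 1.36 and 1.20 and, at P12, Apoe had 1.05 and Ctsd 1.60. Beyond the cells left out, the cause of these shifts was not tested. The limits of depth are that Olig2 itself was seen mostly as 1 UMI, so matched cells can hold undetected Olig2, and that genes such as Yap1 and, at P24-30, Sox2 had too few UMIs to place above or below the matched cells.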
